A study of Mus musculus with 8 samples.

Results

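Cpne5, which encodes the calcium-binding protein copine-5, and Slc6a3, which encodes the dopamine transporter, were described mouse by mouse in the ileum after duodenal-jejunal bypass (DJB) and after a sham operation. They were chosen by their measured difference between the surgery groups, as entries of a list of the mRNAs with the largest rise after DJB, and that difference is given here as a description with no test. Each was measured by 1 probe, MOUSELNCRNA_51898 for Cpne5 and MOUSELNCRNA_9699 for Slc6a3, which makes 2 of the 90752 transcript probes on the array and 2 of the 64408 that could be compared. The deposited files give these probes no gene. The names rest on a match between the ratio of group means in the authors' table of log2 values and the fold changes listed for named mRNAs, where all 20 listed mRNAs met a probe with a relative error of at most 3.65e-09. The next nearest probe was off by 0.0102 for Cpne5 and by 0.00695 for Slc6a3, so the names were not checked by sequence and are no evidence separate from the difference itself.

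All 8 animals were male C57BL/6 mice that began a high-fat diet, with 60% of its energy as fat, at 6 weeks of age. After 12 weeks of diet the mice with diabetic phenotypes were randomized, 4 to DJB with a 5-cm biliopancreatic limb and a 4-cm Roux limb and 4 to a sham operation, in which the abdomen was opened under anaesthesia but the gut was left uncut and in its own course. Ileum was taken 2 weeks after surgery, and total RNA of each mouse was hybridized in 1 colour (Cy3) to its own Agilent array. No lean or unoperated mice are on these arrays. The source label names the ileum, whereas the extraction text of the labels speaks of the duodenum, and the tissue could not be checked against its marker genes because the files pair no probe with them. Each surgery group was hybridized on a slide of its own, and the effect of the slide and that of the surgery cannot be told apart.

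Copines are soluble proteins that move to phospholipid membranes when calcium rises, by means of paired C2 domains, and they carry a von Willebrand factor A-like domain that binds partner proteins. The dopamine transporter belongs to the sodium- and chloride-coupled SLC6 family and returns released dopamine to the cell. It is best known from midbrain dopamine neurons, where it is the target of cocaine and methylphenidate, while in the gut dopamine is also made by some enteric neurons and in the mucosa.

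The probe sequences are shown because everything measured here is hybridization to these bases, and because the gene names do not come from them. Capitals mark AATAAA, the letters of the canonical polyadenylation signal.
Cpne5 probe: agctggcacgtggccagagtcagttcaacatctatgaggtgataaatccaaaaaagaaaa
Slc6a3 probe: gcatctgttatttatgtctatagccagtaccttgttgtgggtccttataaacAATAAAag
AATAAA lies at bases 53 to 58 of the Slc6a3 probe, with 2 bases after it, and 14.7% of all transcript probes hold these letters. The Cpne5 probe is 41.7% G and C, equal to the median of the array. The Slc6a3 probe is 35% G and C, and only 0.175% of the transcript probes were lower. The longest run of bases the pair share is 5, and no other probe of the array shares 16 or more bases in a row with either one on either strand.

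Cpne5 was dim in every sham mouse and bright in every DJB mouse. On the relative log2 scale, where 0 is the 75th percentile of all transcript probes on the same array, Cpne5 was -4.14, -4.71, -3.17 and -3.66 in sham-1 to sham-4. It was 0.89, 0.14, 2.89 and 1.78 in DJB-1 to DJB-4. The groups did not overlap, since the lowest DJB mouse stood 3.32 above the highest sham mouse, a 9.97-fold gap. In 22.1% of all probes compared, too, every DJB value lay above every sham value. The mean level was -3.92 ± 0.66 (SD, n = 4) after sham and 1.43 ± 1.18 (SD, n = 4) after DJB, a difference of 5.34 (standard error 0.57) or 40.6-fold. In whole tissue, a change in the number of cells that hold a transcript and a change in its amount per cell cannot be told apart.

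Slc6a3 was also dim in every sham mouse and brighter in every DJB mouse, with a smaller difference and less spread after DJB. Its relative log2 signal was -4.80, -5.69, -3.85 and -3.45 in sham-1 to sham-4. It was 0.29, -0.57, 0.05 and -1.07 in DJB-1 to DJB-4. Here too the groups did not overlap, with 2.37 between the lowest DJB and the highest sham mouse, a 5.19-fold gap. Such a separation, with DJB above sham, was seen in 22.1% of the probes compared. The mean level was -4.45 ± 1.0 (SD, n = 4) after sham and -0.32 ± 0.61 (SD, n = 4) after DJB, a difference of 4.12 (standard error 0.49) or 17.4-fold.

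With another background correction (normexp, offset 50), which adds a constant to every spot, the differences came to 3.62 for Cpne5 and 2.21 for Slc6a3 and kept their direction.

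**Figure D1:**
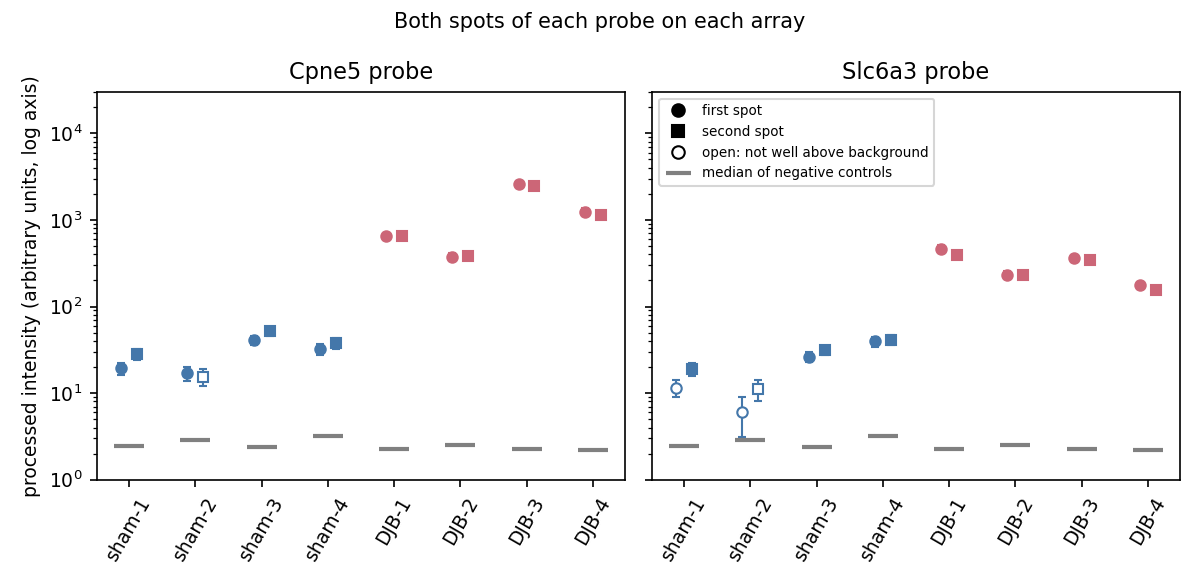
Processed intensity (arbitrary units, log axis) of both spots of the Cpne5 and the Slc6a3 probe on each of the 8 arrays, with sham arrays in blue and DJB arrays in red; bars are the scanner software's error of each spot, open symbols are spots not well above background and grey dashes are the median of the 600 negative control spots. The DJB spots lie between 376.5 and 2572 for Cpne5 and between 155.5 and 460.4 for Slc6a3, and no sham spot exceeds 51.8.

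Each probe was printed at 2 distant places on the array. The Cpne5 spots are in row 602, column 122 and in row 1038, column 112, and those of Slc6a3 in row 736, column 111 and in row 844, column 128. In processed intensity, the Cpne5 spots read 19.4 and 28.5 in sham-1, 17 and 15.5 in sham-2, 40.6 and 51.8 in sham-3, and 32.1 and 38.0 in sham-4. They read 650 and 646 in DJB-1, 377 and 385 in DJB-2, 2572 and 2492 in DJB-3, and 1238 and 1136 in DJB-4. Both Cpne5 spots put the mice in the same order within each group.

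The Slc6a3 spots read 11.6 and 18.9 in sham-1, 6.09 and 11.2 in sham-2, 26.1 and 31.5 in sham-3, and 39.5 and 41.3 in sham-4. They read 460 and 395 in DJB-1, 232 and 233 in DJB-2, 362 and 344 in DJB-3, and 175 and 155 in DJB-4. Again both spots gave 1 order of mice in each group.

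No spot of either probe was saturated, flagged as an outlier or replaced by a surrogate value. Spots of 1 array are not replicates of the surgery, but they show how well a mouse's own value was read. After DJB the spot SD on the log2 scale was 0.05 for Cpne5, and the spread between mice was 24.5 times as large. For Slc6a3 after DJB the spot SD was 0.10 and the spread between mice 6.02 times as large. The dim sham spots were read less closely, with a spot SD of 0.25 for Cpne5 and 0.41 for Slc6a3, and the mouse spread was 2.61 and 2.45 times these.

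The balance of the Cpne5 spots differed between the raw and the processed signal. In the raw mean signal of the DJB arrays, the second spot gave 0.755 to 0.773 of the first, and in the processed signal it gave 0.918 to 1.02. Which step of the software's processing changed the ratio was not tested. For Slc6a3 on those arrays the raw ratio was 0.829 to 0.961 and the processed ratio 0.858 to 1.0. On the sham arrays the raw ratio was 0.825 to 0.990 for Cpne5 and 0.996 to 1.16 for Slc6a3. The processed ratio there was 0.912 to 1.47 for Cpne5 and 1.04 to 1.84 for Slc6a3. The second Slc6a3 spot had the higher processed value on all 4 sham arrays. Using the first spot alone gave differences of 5.49 for Cpne5 and 4.42 for Slc6a3, and using the second alone gave 5.20 and 3.82.

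Detection in the sham ileum differed between the probes. Cpne5 was well above background in 7 of 8 sham spots and on 4 of 4 sham arrays, with the second spot of sham-2 the exception. Slc6a3 was well above background in 5 of 8 sham spots and on 3 of 4 sham arrays, where sham-2 failed at both spots and sham-1 at the first. On the DJB arrays all 8 spots of each probe were well above background. By the software's weaker criterion, a signal that is positive and significant against the local background, all 8 sham spots of each probe also passed.

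The sham signals stood above most spots that hold no mouse sequence. Between 98.5% and 100% of the negative control spots of the same array were below a Cpne5 sham spot, and between 97.3% and 99.8% were below a Slc6a3 sham spot. The raw sham signal was 1.79 to 3.73 times the local background for Cpne5 and 1.63 to 3.26 times for Slc6a3. After DJB these ratios were 16.7 to 129 for Cpne5 and 10.6 to 21.9 for Slc6a3. The stated error of a spot was 11.3% to 22.4% of its value for Cpne5 and 12.6% to 48.3% for Slc6a3 on the sham arrays, and at most 10.1% for both on the DJB arrays. The largest error, 48.3%, belongs to the first Slc6a3 spot of sham-2, and without that mouse the Slc6a3 difference was 3.71.

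**Figure D2:**
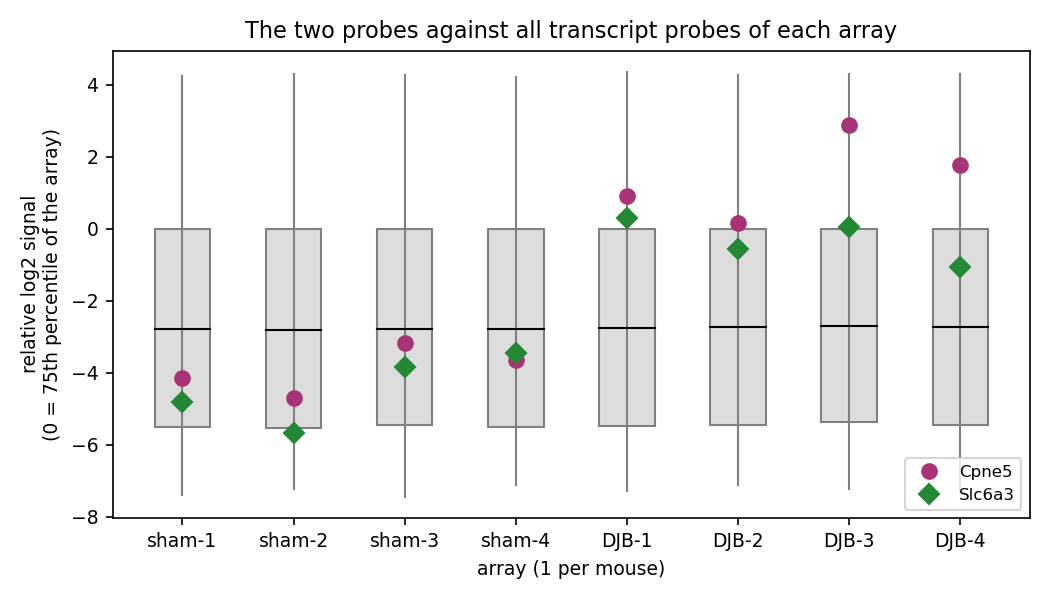
Relative log2 signal of the Cpne5 probe (circles) and the Slc6a3 probe (diamonds) on each array against all 90752 transcript probes; boxes span the 25th to the 75th percentile of the array, the black line is its median and the grey line runs from the 5th to the 95th percentile. In all sham mice both probes lie below the array median, and in all DJB mice both lie above it.

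Set against the other transcript probes of the same array, the level of Cpne5 exceeded 31.7% to 46.1% of them in the sham mice and 76.1% to 90.9% in the DJB mice. Slc6a3 exceeded 23.9% to 43.4% in the sham mice and 66.1% to 77.1% in the DJB mice. The highest rank belonged to Cpne5 in DJB-3 and the lowest to Slc6a3 in sham-2. A probe's brightness also depends on its own sequence, so the level of Cpne5 is not set against that of Slc6a3 as an amount of RNA.

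A probe was compared when all arrays of either group detected it above background, and Slc6a3, detected on 3 of 4 sham arrays, entered only through the DJB group, where it is high. Among the 64408 differences, Cpne5 had rank 2 and Slc6a3 rank 8 from the top. Over these probes the median difference was 0.08, and the 1st and 99th percentiles were -1.38 and 1.12. Counting a probe as called when it differed by 2-fold or more with a limma adjusted p under 0.05, 830 probes were higher after DJB, or 1.29% of those tested, and 2.3% were lower. The DJB values all lay above the sham values in 22.1% of the probes and all below them in 14.8%. These counts depend on the scaling, with 399 higher and 3255 lower when no scaling was applied and 341 and 3823 when the spike-ins set it. Cpne5 and Slc6a3 are among the higher ones by either count, which the way they were chosen fixes.

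The differences of probes of like sham level are given as scale, since the pair were picked for a large difference and had to lie at the top of them. Of the 4301 probes whose sham mean was within 0.25 of that of Cpne5, the median difference was 0.11 and the 99th percentile was 1.07. Of these, 2 were higher after DJB by 8-fold or more, Cpne5 among them. Of the 3902 probes near the sham mean of Slc6a3, the median was 0.13, the 99th percentile was 1.22, and 4 were higher after DJB by 8-fold or more, Slc6a3 among them. The control probes differed little by comparison. The 10 spike-in E1A probes, whose RNA was added during labelling, were higher on the DJB arrays by 0.20 to 0.46 (median 0.37) after the scaling, and the negative controls differed by 0.03. Scaling to the spike-ins instead gave differences of 5.0 for Cpne5 and 3.77 for Slc6a3.

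**Figure D3:**
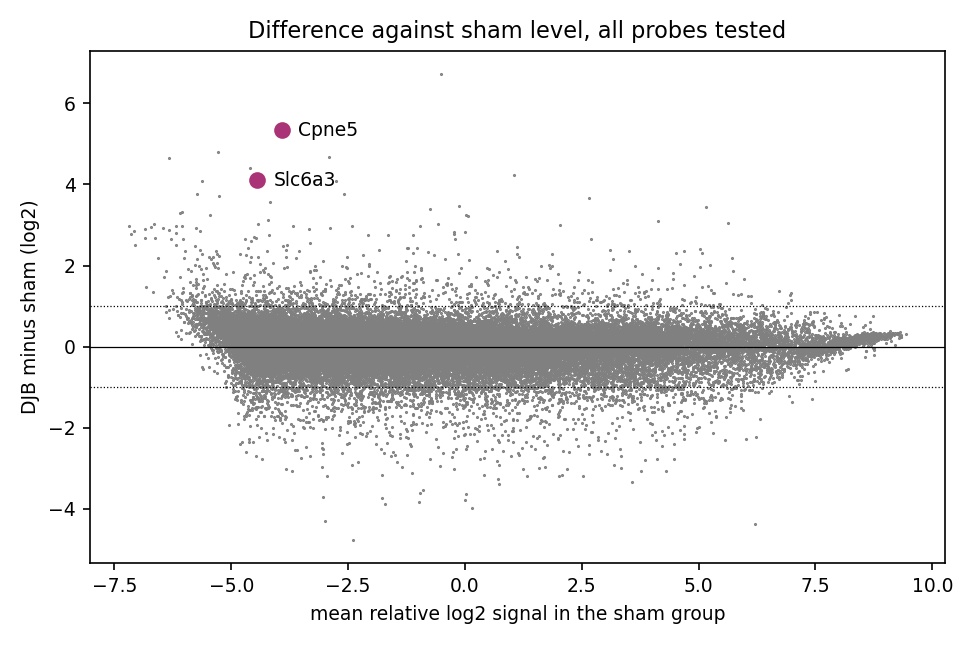
DJB minus sham difference (log2) against the mean relative log2 signal of the sham group for the 64408 probes compared, 1 grey point per probe, with Cpne5 and Slc6a3 in purple and dotted lines at a 2-fold change. Cpne5 lies at 5.34 and Slc6a3 at 4.12, and the pair were picked for this large difference.

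The DJB mice differed in how far each transcript stood above sham. Against the sham mean, Cpne5 was 28.1-fold higher in DJB-1, 16.7-fold in DJB-2, 112-fold in DJB-3 and 51.8-fold in DJB-4, so the highest DJB mouse stood 6.70-fold above the lowest. Slc6a3 was 26.7-fold higher in DJB-1, 14.7-fold in DJB-2, 22.5-fold in DJB-3 and 10.4-fold in DJB-4, a range of 2.57-fold. Within the sham group the range was 2.91-fold for Cpne5 and 4.73-fold for Slc6a3. The sham range of Slc6a3 rests in part on sham-2, where neither spot was well above background. Without sham-2, an alternative added after seeing the data, the sham ranges were 2.56-fold for Slc6a3 and 1.95-fold for Cpne5.

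Nearest neighbours in the order of mice had spot values that did not overlap, but the stated errors of those spots did. For Slc6a3 after DJB the closest mice were DJB-1 with spots at 0.40 and 0.18 and DJB-3 with spots at 0.08 and 0.01, which do not overlap. In processed intensity the nearer spots read 395 with a stated error of 39.6 in DJB-1 and 362 with 36.3 in DJB-3, and these errors overlap. For Cpne5 in the sham group, sham-1 had spots at -4.41 and -3.86, between sham-4 at -3.78 and -3.53 and sham-2 at -4.65 and -4.78. These spots did not overlap, but the stated errors of the nearer ones did. How far such gaps reflect the animal or its array was not tested, since each mouse has 1 array.

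Compared with probes of like brightness, both spread widely between mice. The SD of Cpne5 was above that of 97.6% of 4301 such probes in the sham group (median SD 0.18) and of 99.8% of 2470 in the DJB group (median SD 0.12). The SD of Slc6a3 was above that of 99.5% of 3902 probes in the sham group (median SD 0.21) and of 98.9% of 3624 in the DJB group (median SD 0.13). These sets hold only the probes compared, and Slc6a3 entered them through the DJB group alone. Its sham share, with or without sham-2, depends on that filter and is given as description only. Without sham-2 the sham shares were 95.8% of 4396 probes for Cpne5 and 98.4% of 4262 for Slc6a3. An SD of this size after DJB is not particular to the pair. Over the 10 mRNAs with the largest listed rise, it ran from 0.59 for Acaa1b to 2.22 for 1700057G04Rik.

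The pair ran side by side in some mice only. Cpne5 minus Slc6a3, on the relative log2 scale, was 0.60 in DJB-1 and 0.71 in DJB-2 but 2.84 in DJB-3 and 2.85 in DJB-4. In the sham mice it was 0.67, 0.98, 0.68 and -0.21. The DJB mice fall into a pair near the sham values and a pair well above them, which is a description of 4 values and was not tested.

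**Figure D4:**
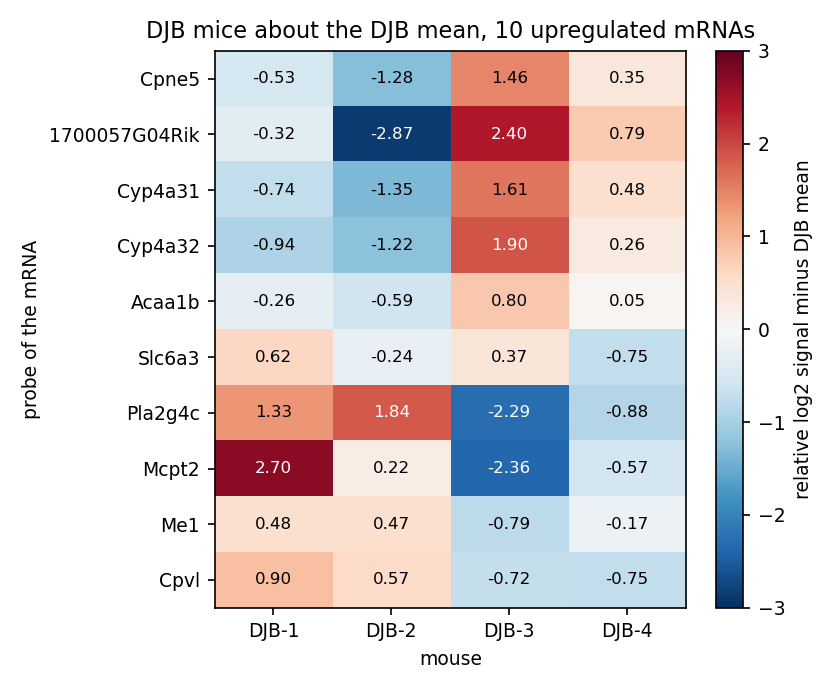
Relative log2 signal of each DJB mouse minus the mean of the 4 DJB mice, for the probes of the 10 mRNAs with the largest listed rise, with red above and blue below the mean and the value written in each cell. Cpne5 is lowest in DJB-2 (-1.28) and highest in DJB-3 (1.46) and shares its order of mice with the next 4 rows, and the order of Slc6a3 is found in no other row.

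The order of the DJB mice for Cpne5, with DJB-3 highest, then DJB-4, DJB-1 and DJB-2, also held for 4 of the 8 other mRNAs on the same list. These are the fatty acid hydroxylases Cyp4a31 and Cyp4a32, the peroxisomal thiolase Acaa1b and 1700057G04Rik, named through the same match of fold changes. In Cyp4a31 the DJB values were 2.62, 2.0, 4.97 and 3.83 from DJB-1 to DJB-4, and in Acaa1b they were 6.06, 5.74, 7.13 and 6.37. The same order held for 5.67% of 64371 probes with a value on every array, and for 64 of the 830 probes called higher, or 7.71%. In the sham group the Cpne5 order, again replicate 3, 4, 1 and 2, was shared by 3 of the 8, the NADP-dependent malic enzyme Me1, Cyp4a32 and Acaa1b, against 4.51% of all probes. Cyp4a32 was well above background on only 2 sham arrays. It read -6.72 in sham-1 and -6.96 in sham-2, below the lowest detected probes there (-6.30 and -6.15). Its order of these mice was therefore not resolved.

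Slc6a3 had its own order, with DJB-1 highest, then DJB-3, DJB-2 and DJB-4. None of the 8 other mRNAs shared it, and neither did any share its sham order of sham-4, sham-3, sham-1 and sham-2. Over all probes these orders held for 2.74% and 4.63%, and over the probes called higher the DJB order held for 30, or 3.61%. Among the 8, Cpvl was well above background on only 1 sham array and Cyp4a32 on 2, so their sham orders were not resolved. The phospholipase Pla2g4c, the mast cell protease Mcpt2 and Me1 had DJB-3 lowest, where Cpne5 was highest. Mcpt2, the only named probe among 5 mast cell markers looked for, read 0.16, -1.33, -1.29 and -0.51 in the sham mice and 5.35, 2.87, 0.29 and 2.08 in the DJB mice, and its part in the results for the pair was not tested. In 7 of the 10 listed mRNAs, Cpne5 and Slc6a3 included, sham-2 was the lowest sham mouse. The share over all probes was not counted, so whether sham-2 was low more widely is not known. Neither Slc6a3 nor Cyp4a32 was well above background in sham-2.

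The probes whose values ran most like the pair were looked for over all 8 arrays, with Pearson's r as the measure and 64369 probes compared. Because the surgery groups differ in both members, any probe that differs between the groups correlates with them, and 3364 probes had r above 0.9 with Cpne5 and 2803 with Slc6a3. The closest to Cpne5 was MOUSELNCRNA_81832 (r = 0.994), a bright probe with a mean of 2.28 after sham and 2.92 after DJB. The most opposed was MOUSELNCRNA_30888 (r = -0.994), which went from -3.02 to -3.63. The closest to Slc6a3 was MOUSELNCRNA_46152 (r = 0.997), which read 5.83, 5.47, 6.15 and 6.16 in the sham mice and 7.42, 7.17, 7.22 and 7.01 in the DJB mice. The most opposed was MOUSELNCRNA_74204 (r = -0.996), which went from 2.27 to 1.70. These probes have no gene name in the files.

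The region upstream of each gene is shown so that a reader can set the sequences side by side. Both transcripts were chosen as higher after DJB, and their orders of the DJB mice differed. Shared control of the pair was not tested. The 250 bases before the annotated start were taken from RefSeq on the build GRCm38.p6, 5′ to 3′ along the gene's strand, and capitals mark GGGCGG or its complement CCGCCC (the GC box bound by Sp-family factors) and CACGTG (an E box).
Cpne5, chr17:29237791-29238040, minus strand: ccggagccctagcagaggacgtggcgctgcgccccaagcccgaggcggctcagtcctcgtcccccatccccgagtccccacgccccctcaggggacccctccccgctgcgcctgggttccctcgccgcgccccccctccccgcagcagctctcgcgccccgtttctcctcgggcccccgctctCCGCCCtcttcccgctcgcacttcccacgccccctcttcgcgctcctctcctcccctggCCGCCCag
Slc6a3, chr13:73536497-73536746, plus strand: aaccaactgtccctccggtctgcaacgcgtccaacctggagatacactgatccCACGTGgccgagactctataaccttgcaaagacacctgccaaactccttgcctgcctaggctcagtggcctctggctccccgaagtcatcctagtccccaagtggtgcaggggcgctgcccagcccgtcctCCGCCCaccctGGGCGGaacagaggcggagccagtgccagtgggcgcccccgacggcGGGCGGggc
The Cpne5 window is 76.4% G and C with 27 CpG pairs, and the Slc6a3 window is 66% with 16, against medians of 52.4% and 6 over 32841 promoters of this length. The observed over expected CpG ratio was 0.88 for Cpne5 and 0.60 for Slc6a3, above 87.2% and 66.0% of promoters.

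The letters searched on both strands were chosen after these sequences had been read. GGGCGG was found at 2 places in the Cpne5 window and 3 in that of Slc6a3, and 32.7% of all promoters hold it. CACGTG was found at 1 place in the Slc6a3 window and not in that of Cpne5, and 6.02% of promoters hold it. Neither window holds TATAAA (12.4% of promoters), CCAAT (33.9%) or the cyclic AMP response element TGACGTCA (1.55%). None of this measures binding of a factor. By the RefSeq gene table, the nearest protein-coding genes are Rab44, Cdkn1a, Ppil1 and BC004004 around Cpne5 and Lpcat1, Mrpl36, Clptm1l and Tert around Slc6a3, and no annotated gene overlaps either one.

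**Figure D5:**
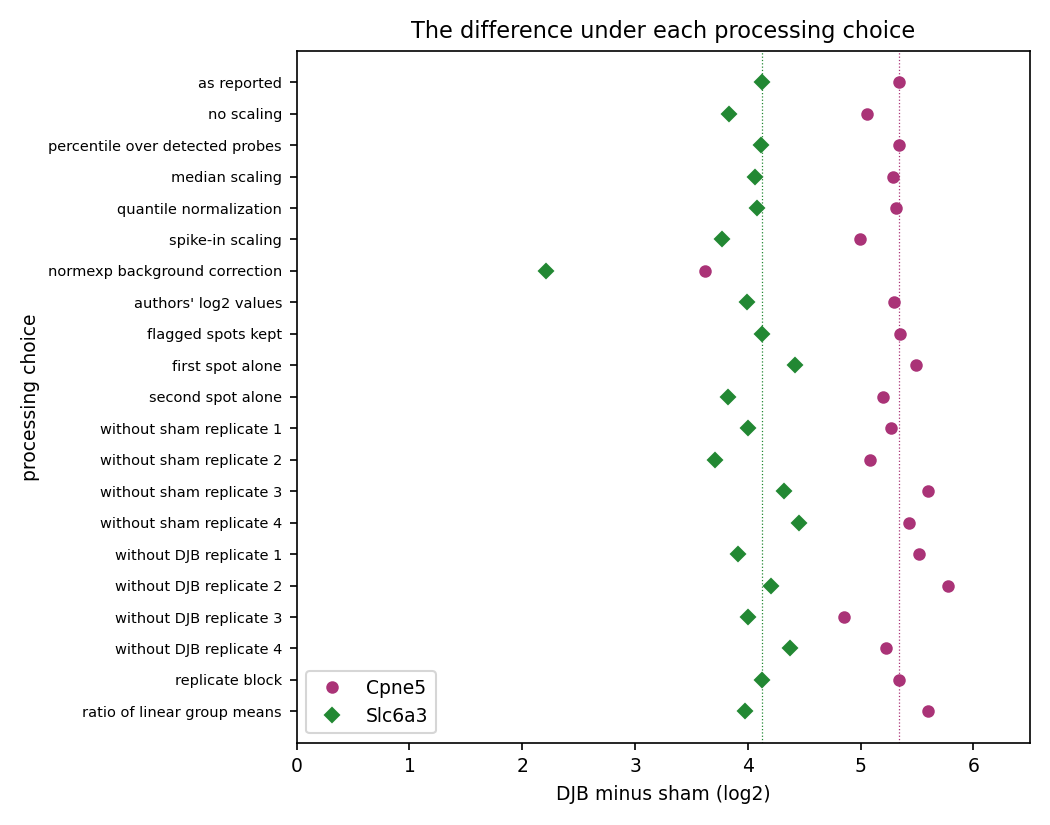
DJB minus sham difference (log2) of the Cpne5 probe (circles) and the Slc6a3 probe (diamonds) under each processing choice and with each mouse left out; dotted lines mark the values given in the text. All values for Cpne5 lie between 3.62 and 5.77 and all for Slc6a3 between 2.21 and 4.46, and the lowest of each is the normexp background correction.

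Every DJB value of either probe lay above every sham value, so leaving out a mouse could not reverse a difference. Leaving out 1 mouse at a time, the Cpne5 difference ran from 4.86 without DJB-3 to 5.77 without DJB-2. The Slc6a3 difference ran from 3.71 without sham-2 to 4.46 without sham-4.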

How the data were processed

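Ileal RNA of 8 mice, 4 after DJB and 4 after sham surgery, was hybridized to 1-colour Agilent arrays, 1 array per mouse, and groups were taken from the sample labels. The authors deposited scanner files with the processed intensity of each spot, background-subtracted and spatially detrended by Agilent Feature Extraction (version 11.0.1.1 per the submitters' processing notes, 12.0.3.1 per the file headers) and not scaled between arrays. They also deposited a table of normalized log2 values, whose exact normalization is not given in the sources used here, and which served to name probes and as an alternative. A genome build for the array probes is not given in the sources used here, and promoter sequences came from RefSeq on GRCm38.p6.

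The relative log2 signal of a probe is the mean log2 processed intensity of its spots, less the 75th percentile of that value among the transcript probes of the array. Control spots and outlier-flagged spots did not enter. All transcript probes set the percentile, since 67.3% of them stood well above background throughout. Before scaling, that percentile was 413.1 to 439.8 on the sham arrays and 341.9 to 348.5 on the DJB arrays, and 71.5% to 74.6% and 72.4% to 74.0% of the probes were well above background. Each array holds 176026 transcript spots, none saturated, and 85274 probes are printed at 2 places. An array's probe was detected, that is well above background, with 1 detected spot or more. The 64408 probes detected throughout a group went into limma 3.58.1 under R 4.3.3 (lmFit, eBayes). The fit serves as background for the pair and was tested on simulated data. Sequences and figures were handled in Python 3.11.15 with pandas 2.3.3 and matplotlib 3.10.9. The number of arrays limits the precision.

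The rule for named genes was the pair, the genes of lists (copines, annexins, dopamine genes, the SLC6 family, neighbouring genes and cell type markers) and, for each member, the most and least correlated probe. Of the list genes beyond the pair, only Mcpt2 has a probe named by the match of fold changes. The others were not analysed here. The further listed mRNAs were named for the order of mice after their values were seen. The members and lists were chosen with earlier results of these data known. Alternatives covered scaling, background correction, filters, flagged spots, single spots, the methods' t-test, the authors' log2 values and each mouse left out. The ratio of linear group means was added after seeing the data. Replicate numbers did not pair the mice.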

Additional observations from a re-analysis of the deposited data

How the results depend on the processing

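The differences of Cpne5 and Slc6a3 kept their direction under all 12 alternatives. Leaving out a mouse could not reverse them, since the groups do not overlap. Under 11 of the 12 they moved by less than the spread between mice. The exception was the normexp background correction, with 3.62 for Cpne5 and 2.21 for Slc6a3. With each mouse left out, Cpne5 ran from 4.86 to 5.77 and Slc6a3 from 3.71 to 4.46. The authors' log2 values gave 5.30 and 3.99, no scaling 5.05 and 3.83, and the ratio of linear group means, added after seeing the data, 5.60 and 3.98. The counts of probes called by limma moved more. Against 830 higher and 1482 lower, no scaling gave 399 and 3255, spike-in scaling 341 and 3823, normexp 357 and 677, and no minimum fold change 14232 and 9322. The share of called probes that were lower was 64.1%, and it was 89.1% with no scaling, 91.8% with spike-in scaling and 39.6% with no minimum fold change, while the median difference of all probes went from 0.08 to -0.21 and -0.27 under the first pair of these. No scaling lowers the difference of every probe with a value on all arrays by the same amount, and so does spike-in scaling. Why the arrays differ in brightness was not tested. With each mouse left out, the higher probes numbered 773 to 973 and the lower 1388 to 1754. The methods' t-test gave 829 higher and 1480 lower probes unadjusted and 725 and 1428 after Benjamini-Hochberg adjustment. With the replicate number as a block, which is among the 12 alternatives, the counts were 845 and 1469. The differences stayed at 5.34 and 4.12, since a block with a mouse of each group cannot change them. Deviations of mice with the same number correlated between -0.02 and 0.01, so the block pairs no mice. The dim sham signal of Slc6a3, not well above background at 3 of 8 spots, limits how closely its fold can be given.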
